A study of Mus musculus with 5 samples.

Results

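Transcripts of the B cell receptor pathway and of CD20 were followed in 5 mouse cell cultures through the array probe sets annotated to Ms4a1 (CD20), Cd79a, Cd79b, Lyn, Blk, Syk, Blnk, Btk and Prkcb. A probe set is a group of short oligonucleotides that together read 1 transcript. Of these 9 genes, 8 had at least 1 probe set that carried their symbol alone, out of 8251 genes with such a probe set. They were read by 14 of the 12488 probe sets. Lyn had no such probe set and was not analysed here.

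Each culture was hybridised to 1 Affymetrix array. AxJ is a mouse plasma cell line, the antibody-secreting stage of the B lineage, and it was stably transfected with empty vector (1 array), to overexpress hnRNP-H, a protein that binds RNA (1 array), or to overexpress the related protein hnRNP-F (subclones B5 and D6, with 1 array each). A20, which the labels call a memory B cell line of the mouse, was measured untransfected on 1 array. The AxJ cultures were kept under the selection drug G418 and A20 was not, so line and drug cannot be told apart. Each AxJ array is 1 clone, those with hnRNP-H or hnRNP-F having been picked for high protein on a western blot, and no repeated culture is described.

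The B cell receptor is a membrane immunoglobulin held to the signalling chains CD79A and CD79B, whose tails carry tyrosine motifs known as ITAMs. After antigen binding, the Src family kinases LYN and BLK phosphorylate these motifs and the kinase SYK docks on them. SYK phosphorylates the adaptor BLNK, which brings BTK to phospholipase C gamma, and the diacylglycerol and calcium released by that enzyme activate protein kinase C beta. CD20 is a surface protein of B cells that is lost as they become plasma cells.

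RefSeq promoter windows (build GRCm38.p6, from 250 bases before to 50 bases after an annotated start) were held for 5 of the 9 genes, in 6 windows. The windows of 3 genes are shown. Prkcb was among the largest differences between the lines, Cd79a encodes a chain of the receptor itself, and Blnk did not rise in A20. Capitals mark the octamer ATGCAAAT, searched on both strands. The Prkcb window lies at chr7:122288875-122289174 on the plus strand, the Cd79a window at chr7:24897247-24897546 on the plus strand and the Blnk window at chr19:40994172-40994471 on the minus strand, each written 5′ to 3′ along the gene.
Prkcb: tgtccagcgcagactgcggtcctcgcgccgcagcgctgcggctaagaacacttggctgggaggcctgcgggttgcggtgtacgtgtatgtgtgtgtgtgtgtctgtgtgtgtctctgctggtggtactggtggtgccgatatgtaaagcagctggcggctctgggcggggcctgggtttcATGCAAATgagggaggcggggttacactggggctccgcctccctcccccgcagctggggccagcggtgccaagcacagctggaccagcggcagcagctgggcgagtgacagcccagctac
Cd79a: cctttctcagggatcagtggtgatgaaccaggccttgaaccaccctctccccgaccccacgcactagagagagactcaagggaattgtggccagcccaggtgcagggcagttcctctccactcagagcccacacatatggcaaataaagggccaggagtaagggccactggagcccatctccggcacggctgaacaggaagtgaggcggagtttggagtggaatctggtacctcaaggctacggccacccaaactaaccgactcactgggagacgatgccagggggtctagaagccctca
Blnk: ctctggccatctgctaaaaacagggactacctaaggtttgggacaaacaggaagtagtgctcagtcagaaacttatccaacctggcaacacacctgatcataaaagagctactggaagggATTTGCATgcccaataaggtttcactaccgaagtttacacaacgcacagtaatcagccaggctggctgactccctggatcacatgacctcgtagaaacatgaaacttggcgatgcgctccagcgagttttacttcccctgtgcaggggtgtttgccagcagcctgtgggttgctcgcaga

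The octamer was present in the Prkcb window, beginning 70 bases before the start, and on the opposite strand in the Blnk window, beginning 130 bases before the start. Of all 32851 promoter windows of this length, 1.74% held it. The Prkcb transcript was far higher in A20 and the Blnk transcript was not, and any part of the octamer in this was not tested. The palindrome CCCNNGGG, a pattern bound by early B cell factor, was found in none of the 6 windows of these genes. Of all windows, 13.7% held it. Only these exact letters were searched, so sites of the factor that differ from them would be missed. The E-box letters CANNTG, which were in 72.3% of all windows, occurred in each of the 6, and GGAA, the core bound by ETS factors, in all but the Prkcb window and 1 of the 2 Syk windows, against 96% of all windows. No promoter entry was found for Ms4a1, Cd79b, Blk or Lyn.

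The levels below are quantile-normalised intensities, and differences were taken between values of log2(intensity + 6.53). The added 6.53 was the 20th percentile of the deposited values. On this scale the change of dim probe sets is understated. Probe sets that stayed at or below 21.8, the 40th percentile, on all arrays were not tested. This removed 1 of the 2 Syk and 1 of the 2 Btk probe sets and left 12 of the 14. Fits used limma over all 5 arrays with Benjamini-Hochberg adjustment over 9107 probe sets and a threshold of 0.05. The controls are the empty vector and hnRNP-H arrays, and because A20 has 1 array its differences have no replicate check on that side.

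**Figure D1:**
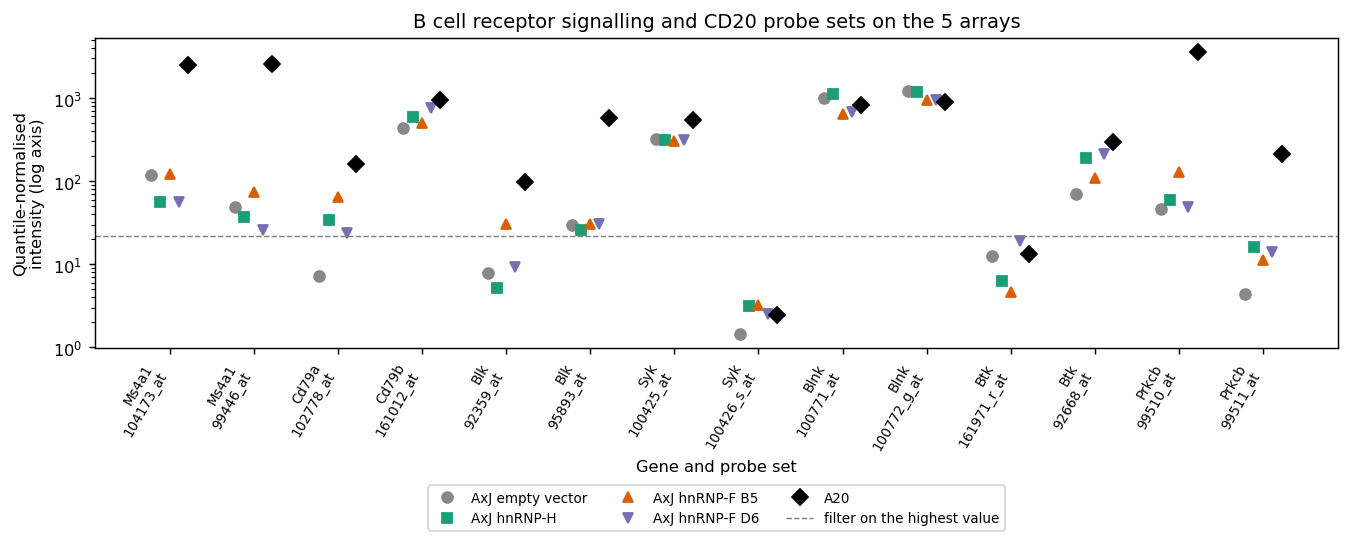
Quantile-normalised intensity (log axis) of the 14 probe sets on the 5 arrays, 1 point per array, with the filter value of 21.8 as a dashed line. A20 (black diamonds) stands above the 4 AxJ arrays for 10 probe sets, by the widest margin for Ms4a1, Prkcb and Blk 95893_at, and lies among or below them for both Blnk probe sets.

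The labelled cell types were first set against their markers. Of 5 B cell markers tested 4 were higher in A20, and of 7 plasma cell markers 4 were lower. With 1 probe set per gene, 3.22% of all 6638 genes tested were called higher and 3.39% lower. On the log2 scale Spib rose in A20 by 5.99 (SE 0.50, limma adjusted p = 0.000541), and Cd22, Ebf1 and Pax5 also rose. Spib, Cd22 and Ebf1 passed the filter only through A20, so the count of 4 is a description, and a second Spib probe set differed by 1.25 without passing (adjusted p = 0.458). Ciita, the class II transactivator, differed by -0.17 without passing, and Cr2 was below the filter on all arrays. The 4 plasma cell markers that fell in A20 were Prdm1, Cd28, Irf4 and Jchain, with Prdm1 at 3.16 in A20 against 92.2 to 157 in AxJ. Xbp1 (-0.84, adjusted p = 0.392), Tnfrsf17 (-1.21) and the Sdc1 probe set used (-0.36) did not pass. A second Sdc1 probe set read 3.69 in A20 against 18.3 to 96.2 in AxJ, so A20 lay below all 4 AxJ arrays. Its fitted difference is not reported here. The Ebf1 and Cd28 calls were lost without empty vector, the Cd28 and Irf4 calls without hnRNP-H, B5 or D6, and the Jchain call without B5 (adjusted p from 0.0554 to 0.123). Without the intensity trend the Ebf1, Pax5, Cd28, Irf4 and Jchain calls were lost. The T cell genes Cd3e, Cd3d, Cd3g and Cd8a stayed below the filter on all arrays, so these T cell markers were at or near the floor. Cd4 and Zap70 passed the filter, with Cd4 at 33.7 to 66.1 and 1 Zap70 probe set at 18.7 to 83.8 over the 5 arrays. Neither differed past the threshold in A20. The summed level of the 6 T cell markers was 84.8 to 160 in AxJ and 87.9 in A20, that of the 6 myeloid markers 214 to 480 and 212, and that of the 3 erythroid markers 71.5 to 127 and 78.6. The AxJ arrays differed in the Gapdh 5′ to 3′ ratio, a sign of RNA integrity or labelling, which was 0.212 for empty vector, 0.181 for B5, 0.866 for hnRNP-H and 0.683 for D6, with A20 at 0.384.

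The comparison of A20 with the AxJ controls asked which receptor pathway transcripts part a B cell line from a plasma cell line. CD20 and 1 of the 2 probe sets of protein kinase C beta showed the widest gaps, followed by 1 of the 2 of the Src family kinase BLK. Transcripts of the adaptor BLNK gave small differences that did not pass. Past the threshold, 5 of the 12 probe sets were higher in A20, covering Ms4a1, Prkcb and Blk, and none was lower, against 5.89% of all tested probe sets called, 2.9% higher and 2.99% lower. A20 lay above all 4 AxJ arrays for 10 of the 12, against 26% of all tested probe sets, and below all 4 for 1, against 28.9%. The median log2 difference of the 12 was 2.90, against -0.04 over all tested probe sets. Prkcb 99511_at passed the filter only through A20, so these counts are descriptions.

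Ms4a1 was read by 2 probe sets that gave like results. Probe set 104173_at read 118 in empty vector, 122 in B5, 56.3 in hnRNP-H, 56.4 in D6 and 2492 in A20. Probe set 99446_at read 49.2, 74.1, 36.5 and 25.5 in the same order of AxJ arrays and 2544 in A20. In A20 the level was 20.5 and 34.3 times that of the highest AxJ array, so the lines did not overlap. All 8 AxJ readings exceeded 21.8, but without detection calls this does not show CD20 transcript above background in AxJ. The fitted differences were 4.82 (SE 0.55, limma adjusted p = 0.00216) and 5.70 (SE 0.56, adjusted p = 0.00106). Both calls held under all 15 alternatives, with differences from 4.25 to 5.31 and from 4.81 to 6.10. In these cultures fewer cells with the transcript and less transcript per cell cannot be told apart.

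Within AxJ, Ms4a1 split the arrays by pairs rather than by transgene. For both probe sets empty vector and B5 were above hnRNP-H and D6, by a mean log2 difference of 1.01 for 104173_at and 0.85 for 99446_at. Over all tested probe sets 18.2% had this order and 18% the opposite one, so such a split is common. Empty vector and B5 are the pair of low Gapdh ratio, and hnRNP-H and D6 that of high ratio. The part of RNA integrity or labelling in the split was not tested.

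Neither receptor chain gave a difference that passed. Cd79a was read by 1 probe set, at 7.21 in empty vector, 63.4 in B5, 34.1 in hnRNP-H, 23.5 in D6 and 159 in A20. A20 was 2.50 times the highest AxJ array, but AxJ itself ran from a reading below the filter value to 63.4. Its fitted difference of 2.80 (SE 0.77) did not pass (limma adjusted p = 0.0748). It passed under 5 of 15 alternatives, among them the authors' own scaling (2.80, adjusted p = 0.0363) and the fit without hnRNP-H (3.59, adjusted p = 0.0404). Without empty vector it was 2.02 (adjusted p = 0.181), and over all alternatives the adjusted p ran from 0.00432 to 0.244.

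Cd79b was bright in all 5 cultures. It read 432 in empty vector, 493 in B5, 594 in hnRNP-H, 755 in D6 and 953 in A20. A20 was the highest, yet only 1.26 times D6, and the difference of 0.90 (SE 0.37) did not pass (limma adjusted p = 0.228). Against the lowest AxJ array, empty vector, A20 was 2.20 times as bright. The AxJ pairs split here too, with hnRNP-H and D6 above empty vector and B5 by a mean log2 difference of 0.53. This order was held by 18% of all tested probe sets.

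Blk, a Src family kinase largely confined to the B lineage, was read by 2 probe sets. Probe set 95893_at read 29.4 in empty vector, 30.2 in B5, 25.6 in hnRNP-H, 30.5 in D6 and 575 in A20. The 4 AxJ arrays lay within 1.19 times of each other, and A20 was 18.8 times the highest. The difference was 4.10 (SE 0.44, limma adjusted p = 0.00164), and the call held under all 15 alternatives. Probe set 92359_at read 7.90, 30.4, 5.21 and 9.21 in the same order of AxJ arrays and 97.8 in A20. Here B5 stood above the other AxJ arrays, and the difference of 3.0035 (SE 0.73) did not pass (adjusted p = 0.0519). It passed under 5 alternatives, both other scalings among them, and its adjusted p ran from 0.0033 to 0.234.

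Syk, the kinase that binds phosphorylated ITAMs, was nearly constant across AxJ. Probe set 100425_at read 321 in empty vector, 303 in B5, 313 in hnRNP-H, 309 in D6 and 540 in A20, so A20 was 1.68 times the highest AxJ array. The AxJ standard deviation was 0.04 on the log2 scale (n = 4), far under the difference of 0.75. The test did not pass (SE 0.31, limma adjusted p = 0.234), since the fit moderates each spread towards that of probe sets of like intensity. It passed only against hnRNP-H and D6 alone (adjusted p = 0.0327). The other Syk probe set read 1.44 to 3.22 on all arrays and gave no usable level.

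Blnk, the adaptor, was bright in both lines and its probe sets, which were designed to the same sequence record and are not independent, did not place A20 apart. Probe set 100771_at read 1005 in empty vector, 636 in B5, 1129 in hnRNP-H, 682 in D6 and 813 in A20. Probe set 100772_g_at read 1211, 946, 1184 and 949 in the same order and 899 in A20. A20 thus lay between clones and controls for the first and below all 4 AxJ arrays for the second. The differences from the controls were -0.39 (SE 0.29, limma adjusted p = 0.555) and -0.41 (SE 0.28, adjusted p = 0.508).

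Btk, the Tec family kinase that BLNK recruits, read 69.6 in empty vector, 108 in B5, 189 in hnRNP-H, 214 in D6 and 291 in A20 with probe set 92668_at. A20 was the highest, at 1.36 times D6 and 4.19 times empty vector. The difference of 1.29 (SE 0.61) did not pass (limma adjusted p = 0.294). It was 0.61 without empty vector and 1.97 without hnRNP-H (adjusted p = 0.589 and 0.0819). The low readings were those of empty vector and B5, the arrays of low Gapdh ratio. Both lay below hnRNP-H and D6, as for 18% of all tested probe sets. The mean log2 difference between the pairs was 1.15, nearly as large as the gap to A20. The part of the ratio in it was not tested. The other Btk probe set read 4.66 to 19.1.

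Prkcb, a calcium-dependent protein kinase C of B cells, had, with Ms4a1, the widest gaps, but on only 1 of its 2 probe sets. Probe set 99510_at read 46.4 in empty vector, 129 in B5, 59.5 in hnRNP-H, 48.3 in D6 and 3550 in A20, which was 27.4 times B5. Probe set 99511_at read 4.40, 11.4, 16.3 and 13.9 in the same order and 214 in A20, the one array above 21.8. The differences were 5.91 (SE 0.54, limma adjusted p = 0.000734) and 3.80 (SE 0.67, adjusted p = 0.0164). Both calls held under all 15 alternatives. For 99511_at all 4 AxJ readings lay below 21.8, so the pseudocount sets the size of its difference and its place among the others. The difference ran from 2.14 to 4.47.

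**Figure D2:**
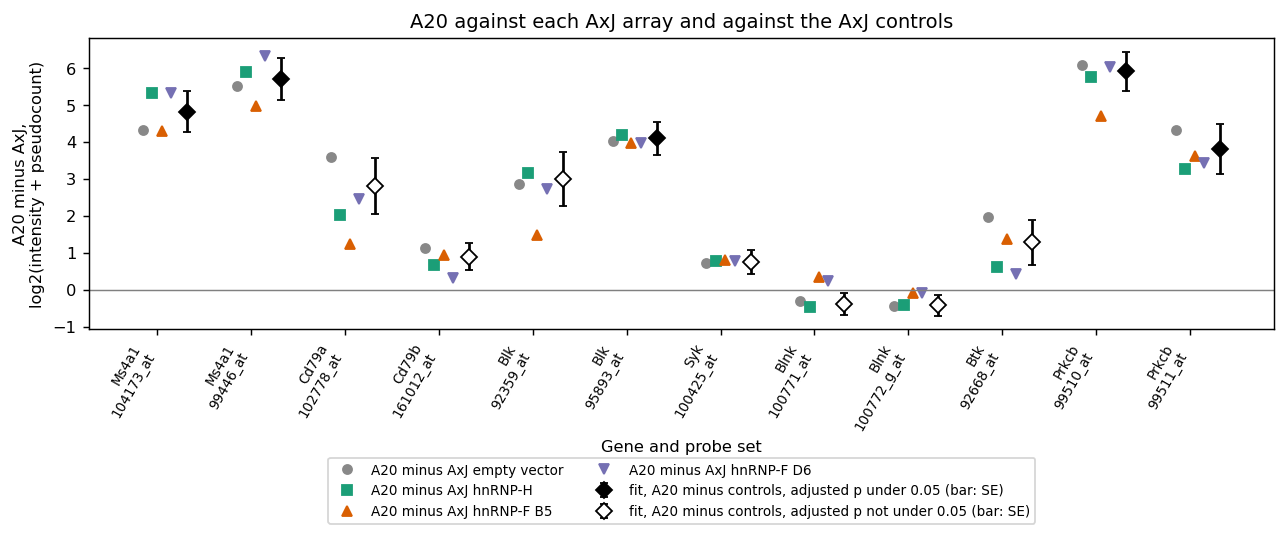
Difference in log2(intensity + 6.53) between A20 and each AxJ array (coloured points) and the fitted difference from the 2 controls (diamonds, bars are the SE) for the 12 probe sets tested, filled where the adjusted p was under 0.05. All 4 AxJ arrays gave differences above 3 for Ms4a1, Prkcb and Blk 95893_at, while Blnk lay around 0.

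The order of the differences from the controls was thus Prkcb 99510_at, both Ms4a1 probe sets, Blk 95893_at, Prkcb 99511_at, Blk 92359_at, Cd79a, Btk, Cd79b, Syk and Blnk. From each probe set to the next the step was at most 1.55 times the combined standard error, apart from the step from Syk to Blnk, at 2.64 times. Ms4a1 99446_at came before Prkcb 99510_at with all AxJ arrays pooled (5.68 and 5.64), without empty vector and against hnRNP-H and D6 alone. No test was made between genes, and all these differences share the same controls. By the rule of smallest root mean square difference between centred log2 profiles over the 5 arrays, the genes most like Ms4a1 104173_at were H2-Ea (0.22), Reln (0.22), Scd1 (0.34), Hbb-b2 (0.41) and Cd22 (0.41). H2-Ea read 12.4 to 32.9 in AxJ and 661 in A20. With 5 points of which 1 stands far off, such likeness rests mostly on A20.

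The second comparison asked whether these transcripts differed in the hnRNP-F clones from the controls. None of the 12 probe sets passed in limma (adjusted p from 0.790 to 0.995), and 1 had an unadjusted p under 0.05, that of Blnk 100771_at, against 5.79% of all tested. Over all probe sets 1 passed, which is 0.011%. The median log2 difference of the 12 was 0.19, against 0.01 over all probe sets, with 9 above 0 and 3 below.

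Blnk was lower in both hnRNP-F clones than in both controls on both of its probe sets. For 100771_at the clones read 636 and 682 against 1005 and 1129, a difference of -0.69 (SE 0.24, unadjusted p = 0.0201, limma adjusted p = 0.790). For 100772_g_at they read 946 and 949 against 1211 and 1184, a difference of -0.34 (SE 0.23, adjusted p = 0.798). Neither was past the threshold, though the clones and controls did not overlap. Both clones lay below both controls for 3 of the 12 probe sets, against 19.4% of all tested, and above them for 2, against 18.2%. The third below was Syk 100425_at, where the clones read 303 and 309 and the controls 313 and 321.

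Cd79a and Blk 92359_at had the largest positive differences, 0.95 (SE 0.63) and 0.89 (SE 0.60), each with an adjusted p of 0.798. Both rested on clone B5. For Cd79a, B5 read 63.4 but D6 read 23.5, inside the control range of 7.21 to 34.1. The same held for Prkcb 99510_at, at 129 in B5 and 48.3 in D6 against 46.4 and 59.5, with a difference of 0.55 (SE 0.44, adjusted p = 0.819). Ms4a1 differed by 0.02 (SE 0.45) and 0.05 (SE 0.46), signs that turned when hnRNP-H or B5 was left out. Btk (0.38), Cd79b (0.26) and Prkcb 99511_at (0.27) had overlapping groups, and Blk 95893_at differed by 0.12.

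**Figure D3:**
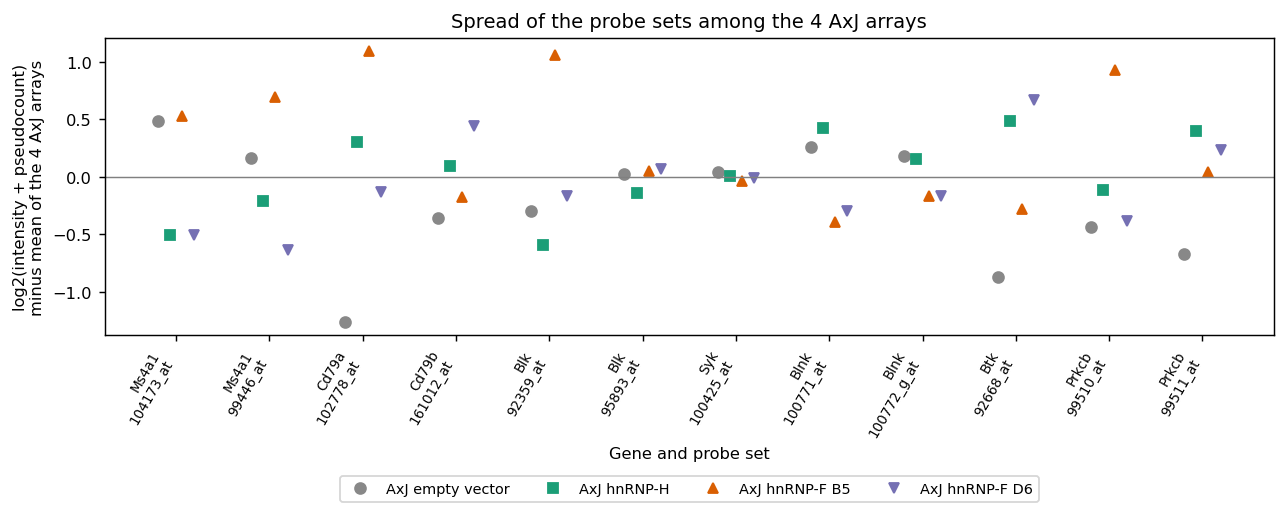
Log2(intensity + 6.53) of each AxJ array minus the mean of the 4 AxJ arrays for the 12 probe sets tested, 1 point per array. Clone B5 (triangles) is the highest for both Ms4a1 probe sets, Cd79a, Blk 92359_at and Prkcb 99510_at, and the 4 arrays nearly coincide for Syk 100425_at and Blk 95893_at.

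Clone B5 read highest of the 4 AxJ arrays for 5 of the 12 probe sets, namely both of Ms4a1, Cd79a, Blk 92359_at and Prkcb 99510_at. Over all tested probe sets B5 was highest in 27.1%, and over the 264 that were higher in A20 in 40.5%. For Blk 92359_at, B5 gave the one AxJ reading above 21.8. For Prkcb 99510_at, B5 exceeded the mean of the other 3 AxJ arrays by 1.24 on the log2 scale, where those 3 had a standard deviation of 0.17, and for Cd79a by 1.45 with 0.81. B5 also had the highest summed level of the 6 myeloid markers (480, against 214 to 348), of which Cd14 made up 251. Its reading was highest for Cd14, Csf1r and 1 Lyz2 probe set (47.0, against 1.35 to 4.22), but not for Cd68 (108, against up to 144). The other Lyz2 probe set and the brighter Mpo probe set read lowest in B5, at 1.10 and 2.25, and Itgam stayed below the filter on all arrays. The part of other cells or of its low Gapdh ratio in the B5 readings was not tested.

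With 1 array a side, hnRNP-H and empty vector, and likewise D6 and B5, were set side by side without a test. From empty vector to hnRNP-H the log2 differences ran from -0.99 for Ms4a1 104173_at to 1.57 for Cd79a, with Btk at 1.36 and Prkcb 99511_at at 1.06. For Cd79a and Prkcb 99511_at the empty vector readings lay below 21.8. From B5 to D6 they ran from -1.33 for Ms4a1 99446_at to 0.95 for Btk. Both hnRNP-H and D6 lay above both empty vector and B5 for 3 probe sets (Btk, Cd79b and Prkcb 99511_at), against 18% of all tested, and below them for 2 (those of Ms4a1), against 18.2%. In each step the higher Gapdh ratio belongs to the later-named array (hnRNP-H and D6), so transgene, clone and ratio cannot be told apart.

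Other genes of the pathway were described from 6 lists of 120 genes, using 1 probe set per gene, and 5 of the lists are described singly. Of the 78 tested, 10 rose and 2 fell in A20, which is 12.8% and 2.56%, against 3.22% and 3.39% of all 6638 genes. These shares are descriptions, since 5 of the 10 (Cd22, Cd72, Pag1, Itpr2 and Nfatc1) passed the filter only through A20, as did 24 of the 214 higher over all genes. Their median log2 difference was 0.36. The 12 calls became 6 when empty vector or B5 was left out and 7 when D6 was. None passed in the hnRNP-F comparison, where the median was 0.08.

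The list of inhibitory receptors and phosphatases held 6 of the 10 that rose, among 15 tested (median 1.43), with 3 of the 6 tested only through A20. Cd22, a sialic acid-binding inhibitory receptor, rose by 4.77 (SE 0.61, limma adjusted p = 0.00368). The A20 level was 345, and the control levels were 5.90 and 6.84. Ptpn6, the phosphatase SHP-1 that such receptors recruit, rose by 3.87 (SE 0.46, adjusted p = 0.00248), its levels being 47.2 and 56.2 against 843. The inhibitory receptor Cd72 rose by 3.87 and Pag1, a membrane anchor for the kinase CSK, by 3.86. The Cd72 and Pag1 calls were lost with a pseudocount of 1 (adjusted p = 0.0824 and 0.0869) and with the filter at the 60th percentile (0.151 and 0.118). That for Cd72 was also lost without empty vector (0.0554), without B5 (0.0532) and against empty vector and B5 alone (0.0732). The other 2 were Inpp5d (2.23), the lipid phosphatase SHIP-1, and Ptprc (1.90), CD45. CD45 is a phosphatase that activates Src family kinases, so not all 6 are inhibitors. Inpp5d and Ptprc were named after their values were seen, and their results under the alternatives are not reported here.

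Among 15 adaptors and exchange factors (median 0.14), 1 rose, the adaptor Lat2, by 4.70 (SE 0.66, limma adjusted p = 0.00579). Lat2 read 1350 in A20 and 172 in B5, against 45.3 for empty vector, 45.7 for hnRNP-H and 43.5 for D6, and a second probe set rose by 3.05. Without the intensity trend the first call was lost (adjusted p = 0.0627). Of 19 genes of the phosphoinositide and calcium arm (median 0.46), 2 rose. These were Itpr2, a calcium channel of the endoplasmic reticulum, by 4.46 (SE 0.64, adjusted p = 0.00637) and the calcium-regulated transcription factor Nfatc1 by 3.75 (SE 0.74, adjusted p = 0.0238), both tested only through A20. The Nfatc1 call was lost with a pseudocount of 1 (adjusted p = 0.067) and with the filter at the 60th percentile (0.114).

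None of 4 co-receptor genes tested passed (median -0.40). Cd40 differed by 3.10 (SE 0.78, limma adjusted p = 0.0578) and Cd81 by -0.49 (adjusted p = 0.478). Of 16 genes of the Ras to MAP kinase arm (median 0.94), the small GTPase Rac2 rose by 1.61 (adjusted p = 0.0492), and the kinase gene Mapk8 fell by 1.76 (adjusted p = 0.0241) and Rhoa by 1.38 (adjusted p = 0.0317). The Rac2 call was lost under 11 alternatives (adjusted p up to 0.274). The Rhoa probe sets disagreed, since 101113_at rose by 1.82 (adjusted p = 0.0238) and 101111_at differed by 0.23 without passing. None of these 3 calls held without empty vector, without B5 or without D6 (adjusted p from 0.0549 to 0.120).

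**Figure D4:**
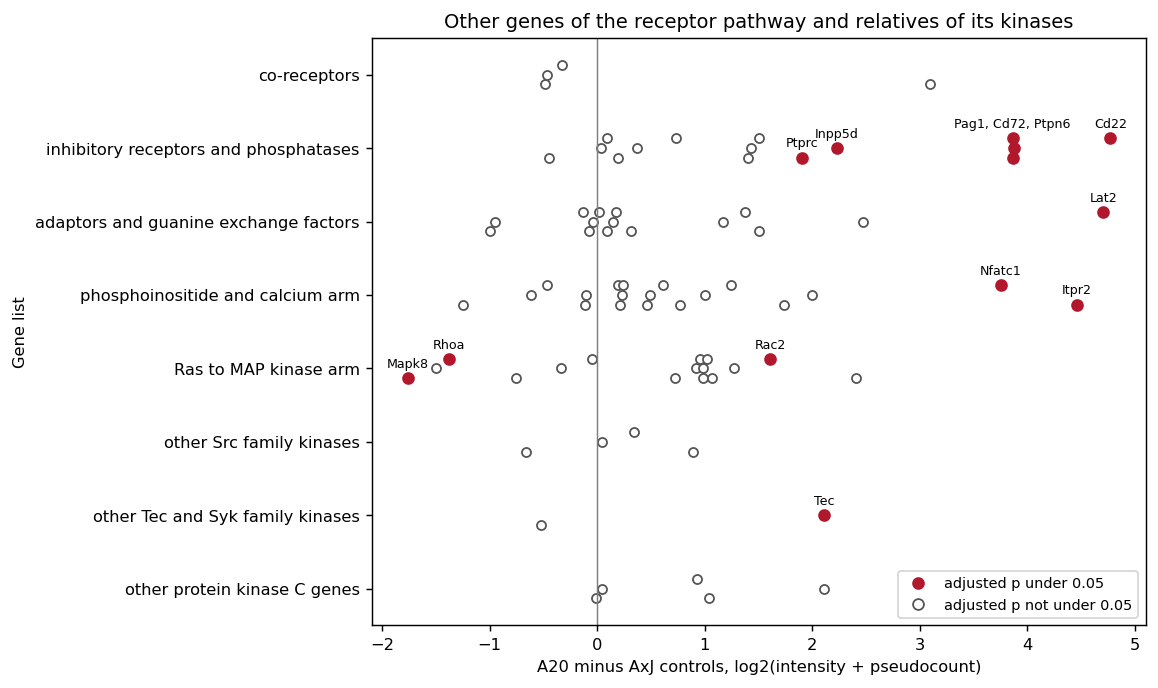
Log2 difference between A20 and the AxJ controls for each tested gene of 5 pathway lists and of the 3 lists of kinase relatives, 1 point per gene, filled where the adjusted p was under 0.05. The filled points on the right are mostly inhibitory receptors and phosphatases, while the co-receptor list has none.

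Relatives of the kinase genes were tested in the same fit, and 1 of 11 passed. Of all 6638 genes, 3.22% were called higher and 3.39% lower, so this count is only a description. None of the 4 other Src family kinases tested passed (Fyn 0.89, Fgr 0.35, Src 0.04 and Yes1 -0.66), beside the 4.10 of Blk 95893_at. Tec, a relative of Btk, rose by 2.11 (SE 0.35, limma adjusted p = 0.0123), a call lost without the intensity trend (adjusted p = 0.0781). The A20 level was 674, and the AxJ levels were 141 and 163 for the controls and 138 and 159 for B5 and D6. Zap70, the relative of Syk that acts in T cells, differed by -0.52 (adjusted p = 0.744). None of 5 other protein kinase C genes passed, the largest being Prkce at 2.11 (SE 0.83, adjusted p = 0.205). By size of the statistic Prkcq came next, at 0.92. Prkcd, another diacylglycerol-dependent member that was named outside the rule for lists, read 1098 to 1423 in AxJ and 1327 in A20. The 5 other MS4A genes with a probe set stayed at or below 12.9 on all arrays.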

How the data were processed

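Polyadenylated RNA of 5 cultures was measured on 1 array each. The authors deposited 1 linear intensity per probe set and array. Per the deposited values, the intensities had been scaled to a trimmed mean of 150.1 per array (2 percent left out at each end). The software and any background step are not stated in the sources used here. Detection calls were not used. No array pair held identical values, and the number of arrays limits the precision.

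The 66 control probe sets were left out and the rest were quantile normalised. The deposited A20 median lay -11.55 percent from the mean of the array medians. Symbols came from the 2016 array annotation, updated by gene ID. Probe sets with several symbols named no gene. The fit used limma 3.58.1 under R 4.3.3, through lmFit and eBayes with an intensity trend, with 3 coefficients for the hnRNP-F clones, the AxJ controls and A20. This left 2 residual degrees of freedom and a prior of 6.46. The 1 A20 array is assumed to vary like AxJ. P-values are two-sided and measure only the spread between these arrays, which may be technical. The procedure was tested on simulated data. For lists, the brightest tested probe set of a gene was used, and up to 4 genes that passed were named by size of difference, or, where none passed, the 2 with the largest statistic. Some further list genes, Prkcd among them, were named outside this rule. The 5 genes most like Ms4a1 were those of smallest root mean square difference between centred profiles. All probe sets of the 9 genes were named. Genes and lists were chosen with earlier results of these data known. Alternatives covered pseudocount, filter, scaling, trend, grouping and each AxJ array left out. The single values of 1 pathway list are not reported here.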

Additional observations from a re-analysis of the deposited data

How the results depend on the processing

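The 5 calls for Ms4a1, Prkcb and Blk 95893_at held under all 15 alternatives. The count for the 9 genes stayed between 5 and 7 under the planned ones and rose to 8 against hnRNP-H and D6 alone, a setting chosen after seeing the data. That setting and its counterpart, A20 against empty vector and B5 alone, gave 1709 and 214 calls over all probe sets, against 536, and 27 and 7 pathway genes, against 12. Over all probe sets the A20 count was 311 without the filter, 145 without the intensity trend and 245 to 667 with 1 AxJ array left out. The pathway count was 7 with a pseudocount of 1, 6 without the trend and 6 to 18 with 1 array left out. For hnRNP-F the count over all probe sets was 0 without the filter or the trend and 0 to 3 with 1 array left out, and for the 9 genes it was 0 throughout. Scaling each array to one median split the A20 calls 362 higher to 191 lower, against 264 to 272. The median A20 difference of all probe sets was 0.07 there, -0.14 as deposited and -0.04 here.

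Signs turned for values that did not pass. Blnk 100771_at was 0.024 against empty vector and B5 alone. With 1 AxJ array left out, the hnRNP-F difference ran from -0.49 to 0.53 for Ms4a1 104173_at, -0.61 to 0.72 for Ms4a1 99446_at, -0.040 to 0.57 for Cd79b, -0.30 to 1.06 for Btk, -0.11 to 1.20 for Prkcb 99510_at and -0.26 to 0.81 for Prkcb 99511_at. The A20 difference then ran from -0.67 to 0.0079 for Cd4, -1.15 to 0.11 for Zap70 and -0.92 to 0.12 for Cd68. Against hnRNP-H and D6 alone, Yes1 was 0.036, Zap70 0.0092, Csf1r -0.11 and Hba-a1 0.0097, and with all AxJ arrays pooled Csf1r was -0.016. The causes were not tested. A group left with 1 array was assumed to vary like the others. No analysis paired by the labels was possible, because they name no pairs of arrays between the groups compared. A block for arrays paired by Gapdh ratio, chosen after seeing the data, left 795 A20 calls over all probe sets, 6 for the 9 genes and 17 pathway genes, and 1 and 0 for hnRNP-F. Without detection calls, readings near the floor have no order.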
